A study of Homo sapiens with 4 samples.

Results

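The genes described here are 10 genes of lipoprotein assembly, the apolipoprotein genes APOA1, APOA2, APOA4, APOB, APOC1, APOC3, APOE, APOH and APOM together with MTTP. They were chosen by name, with earlier results of these data known. Every probe set whose platform annotation gives 1 of these genes and no other was taken. All 10 were read, by 20 probe sets, among 19775 genes in all. Messenger RNA was measured on 4 Affymetrix HG-U133_Plus_2 arrays of HepG2 cells, an established human hepatoma line that makes and secretes lipoproteins. The 2 LSD1-KD arrays carried RNA from cells transfected with a small interfering RNA (siRNA) against LSD1, the histone demethylase encoded by KDM1A, with siRNA-1 on one array and siRNA-2 on the other. For the 2 control arrays the cells had received an siRNA directed at GL3, a firefly luciferase sequence. All cells grew in 25 mM glucose with 10% serum, were transfected near 50% confluence and were harvested after 4 days. The knockdown arrays come from separate transfections with different siRNAs, so their spread includes the difference between the siRNAs. Whether the control arrays stem from separate cultures is not stated, and their spread may be technical only.

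Lipoproteins carry triglyceride and cholesterol through plasma. In the hepatocyte, the microsomal triglyceride transfer protein encoded by MTTP loads lipid onto apolipoprotein B as that chain enters the endoplasmic reticulum, which begins a very low density lipoprotein particle. Smaller, exchangeable apolipoproteins such as E, C-I and C-III then join the particle and steer its lipolysis and uptake, while A-I and A-II are the main proteins of high density lipoprotein. Several of these genes are classic targets of the liver transcription factors HNF1 and HNF4.

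The deposited values come from RMA, are read here as log2, and had been centred by the authors on each probe set's median over the 4 arrays. Centring fixes the middle arrays of each probe set at equal distances from 0, so only differences between arrays carry information and levels of different genes cannot be compared. KDM1A gave -1.17 under siRNA-2 and -1.55 under siRNA-1, against 1.23 and 1.17 on the control arrays, a 5.91-fold lower value on the knockdown arrays (limma adjusted p = 0.0852). A brightness class, derived from the size of the rounding step, placed 8 of the 10 genes at a log2 value of 8 or above and 2, APOA4 and APOC3, between 4 and 8. This class can place a probe set too bright, so it is a rough guide only. All 7 measured hepatocyte markers were in the brightest class, and 1 of 7 markers of intestinal enterocytes, the other cell type that makes APOB and APOA4, was there too (VIL1). Hybridization spike-ins, added in fixed amounts, read 0.65 and 0.61 on the knockdown arrays and -0.69 and -0.61 on the control arrays, and the 5' minus 3' reading of ACTB was lower on the knockdown arrays, with a difference of -0.61. The part of these array differences in the results was not tested.

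Across the 10 genes, 9 read higher on both knockdown arrays than on both control arrays and 0 read lower, while APOM overlapped. Among all genes 23.6% were higher in this way and 25.4% lower, and 26.5% and 30% of the 8516 genes in the brightest class. Because the 10 were chosen with earlier results known, shares over all genes are given for description and not as a test. The median difference, LSD1-KD minus control, was 0.43 on the log2 scale (0.63 with siRNA-2, 0.36 with siRNA-1), beside a median of -0.00 over all genes. None of the 10 passed the limma test over all genes at an adjusted p of 0.05 with 2 arrays per group, a threshold that 1 gene (0.00506%), the fatty acid transporter gene CD36, passed, and 6 of 10 had an unadjusted p under 0.05, against 14.5% of all genes. Quantile normalization was also repeated on the centred values, which forces all arrays to the same spread. Then 401 of the 19775 genes passed, MTTP, APOC1, APOE and APOH among them (limma adjusted p from 0.0229 to 0.0479). In RNA from a whole culture, a change in the number of cells that express a gene and a change in RNA per cell cannot be told apart.

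**Figure D1:**
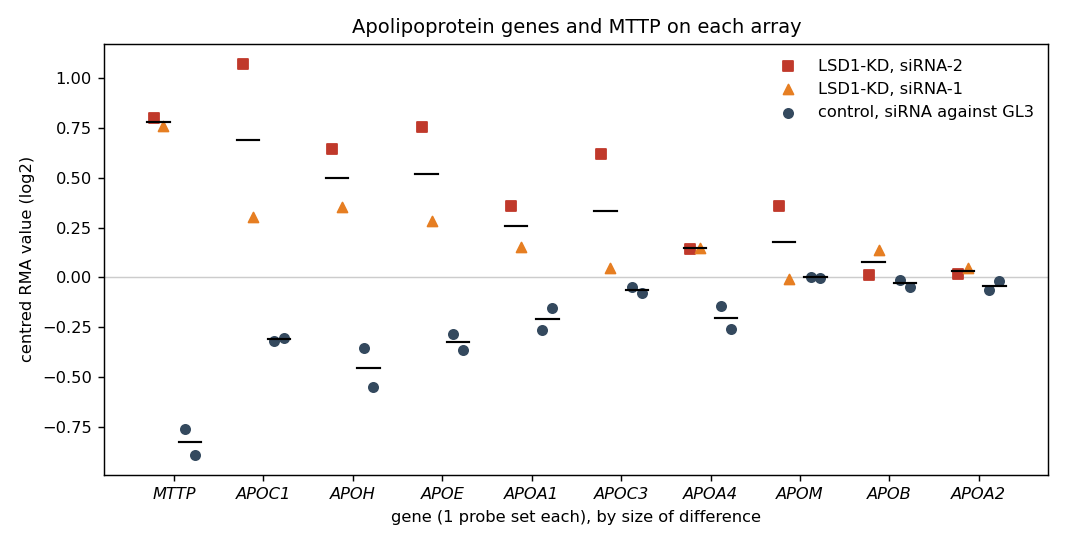
Centred RMA value (log2, vertical axis) of each gene's probe set on the 2 LSD1-KD arrays (square, siRNA-2; triangle, siRNA-1) and the 2 control arrays (circles); bars are group means. MTTP shows the widest gap between groups (1.61) and the closest pair of siRNAs among the genes with a gap above 0.5, while APOB and APOA2 differ by 0.11 and 0.08.

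MTTP, the lipid transfer protein without which apolipoprotein B is not secreted, had the largest difference of the 10 by the probe set used for each gene. The APOC3 probe set that was not used gave a larger one, at 2.12. The 1 MTTP probe set gave 0.80 under siRNA-2 and 0.76 under siRNA-1, against -0.76 and -0.89 on the control arrays. Both knockdown arrays lay far above both controls, and the gap between the knockdown arrays (0.04) was smaller than that between the controls (0.13). The value was 3.04-fold higher on knockdown (1.61 ± 0.11, SE, n = 2 arrays per group), which ranked 16th by p among all genes without passing (limma adjusted p = 0.0868). In all, 78 genes, MTTP included, had a difference as large or larger in the upward direction. The siRNAs differed by 0.04 ± 0.11 (siRNA-2 minus siRNA-1), which was not past the threshold (limma adjusted p = 0.833).

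RefSeq lists more than one start for MTTP, and the downstream one is shown because it holds the motifs described below. The 250 bases before that start lie at chr4:99574574-99574823 on the plus strand of GRCh38.p14, with motif matches in capitals.
MTTP: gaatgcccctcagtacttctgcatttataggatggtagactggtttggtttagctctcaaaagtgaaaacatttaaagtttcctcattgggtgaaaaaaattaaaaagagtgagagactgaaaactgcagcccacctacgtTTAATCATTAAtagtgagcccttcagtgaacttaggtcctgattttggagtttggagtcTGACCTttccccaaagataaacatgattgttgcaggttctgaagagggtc
The longer capital run matches the core of the palindromic site bound by HNF1, 109 to 99 bases before the start. Of 35116 promoter windows of the same length in the RefSeq table, 0.088% hold this motif on either strand. The motifs were chosen with the promoters in view, so this share does not measure how unexpected the match is. The shorter run is AGGTCA on the minus strand, the hexamer bound by nuclear receptors such as HNF4, and 12.1% of windows hold it.

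The genes whose 4 array values lay closest to those of MTTP, by Euclidean distance among 15199 other genes not read by a dim probe set, were KLB (0.0482), KLHL13 (0.126), ENPP2 (0.147), EFCAB12 (0.171) and C8B (0.199). KLB encodes the co-receptor of FGF21 and C8B a complement component. Their differences ran from 1.52 for EFCAB12 to 1.68 for C8B, close to that of MTTP by construction, since the distance was taken on the same values.

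APOB, the large structural protein of very low density lipoprotein and the partner of MTTP, differed little between the groups. Its chosen probe set gave 0.01 under siRNA-2 and 0.14 under siRNA-1, against -0.01 and -0.05 on the control arrays, a difference of 0.11 ± 0.11 (limma adjusted p = 0.685). The knockdown arrays lay above the controls by less than 0.2 log2 units. A second probe set gave -0.28 under siRNA-2 and 0.01 under siRNA-1, against -0.01 and 0.01 on the control arrays, so the groups overlapped there and the mean of both probe sets turned the difference to -0.017.

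APOE and APOC1 are neighbours on chromosome 19 and encode surface proteins of triglyceride-rich particles. Apolipoprotein E is the ligand by which remnants are taken up by the liver, and apolipoprotein C-I modulates enzymes and receptors of these particles. APOE gave 0.75 under siRNA-2 and 0.28 under siRNA-1, against -0.28 and -0.37 on the control arrays. Knockdown and control arrays were separate, with siRNA-2 the highest. The value was 1.79-fold higher on knockdown (0.84 ± 0.19, SE, n = 2 arrays per group; limma adjusted p = 0.242). Its other probe sets gave 0.80 and 0.64.

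APOC1 gave 1.07 under siRNA-2 and 0.30 under siRNA-1, against -0.32 and -0.30 on the control arrays. The controls were nearly equal, and the siRNA-2 array stood well above the siRNA-1 array. The difference was 0.997 ± 0.280, close to a doubling (limma adjusted p = 0.277), and the second probe set gave 0.89. Both APOC1 probe sets carry the _x_at suffix, which marks probes that can match other transcripts, and RefSeq lists a pseudogene of APOC1, APOC1P1, beside it.

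APOC3, which slows the lipolysis and uptake of triglyceride-rich particles, was read by probe sets that disagreed in size. The chosen one gave 0.62 under siRNA-2 and 0.05 under siRNA-1, against -0.05 and -0.08 on the control arrays, a difference of 0.40 ± 0.22 (limma adjusted p = 0.465). Here the siRNA-1 array was barely above the controls. The other, an _s_at probe set of the same brightness class, gave 2.01 under siRNA-2 and 0.65 under siRNA-1, against -0.65 and -0.95 on the control arrays. All knockdown values were above all control values in both probe sets, but the second gave a 4.36-fold higher value (2.12 ± 0.47, limma adjusted p = 0.230 with every probe set tested on its own), and the mean of both gave 1.26.

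APOA1, the main structural protein of high density lipoprotein and the activator of cholesterol esterification in plasma, gave 0.36 under siRNA-2 and 0.15 under siRNA-1, against -0.26 and -0.15 on the control arrays. The groups did not overlap, and the value was 1.38-fold higher on knockdown (0.47 ± 0.13, SE, n = 2 arrays per group; limma adjusted p = 0.270). A pair of _x_at probe sets gave 0.58 and 0.61. APOA2, the second protein of high density lipoprotein, gave 0.02 under siRNA-2 and 0.05 under siRNA-1, against -0.07 and -0.02 on the control arrays. These are the closest groups among the 10 genes, with a difference of 0.08 ± 0.10 (limma adjusted p = 0.763), and the second probe set gave 0.14.

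APOA4, an apolipoprotein of intestinal chylomicrons and high density lipoprotein, was read by 1 probe set, at 0.14 with siRNA-2 and 0.15 with siRNA-1, against -0.14 and -0.26 on the control arrays. The knockdown arrays were almost equal and above both controls, and the difference was 0.35 ± 0.11 (limma adjusted p = 0.297). APOM, a carrier of sphingosine-1-phosphate on high density lipoprotein, gave 0.36 under siRNA-2 and -0.01 under siRNA-1, against 0.00 and -0.00 on the control arrays. Only the siRNA-2 array stood above the controls, and both APOM probe sets overlapped between groups, with differences of 0.18 ± 0.16 (limma adjusted p = 0.644) and 0.11.

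APOH encodes beta-2-glycoprotein I, a phospholipid-binding plasma protein found partly on lipoproteins. It gave 0.65 under siRNA-2 and 0.35 under siRNA-1, against -0.35 and -0.55 on the control arrays. Both knockdown arrays were clearly higher, and the value was 1.94-fold higher (0.95 ± 0.15, SE, n = 2 arrays per group; limma adjusted p = 0.201), second to MTTP by p among the 10. The second probe set gave 0.81.

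The RefSeq table matched 7 of the 10 genes (not APOA1, APOB or APOC3), of which 4 held at least 1 of 5 motifs searched on both strands in the 250 bases before a start. The windows of APOH, APOA4 and APOA2 are shown beside that of MTTP because they span the range of differences, from 0.95 through 0.35 to 0.08. Capitals mark motif matches, all windows are from GRCh38.p14, and each lies on the minus strand, at chr17:66229416-66229665, chr11:116823305-116823554 and chr1:161223629-161223878 in that order.
APOH: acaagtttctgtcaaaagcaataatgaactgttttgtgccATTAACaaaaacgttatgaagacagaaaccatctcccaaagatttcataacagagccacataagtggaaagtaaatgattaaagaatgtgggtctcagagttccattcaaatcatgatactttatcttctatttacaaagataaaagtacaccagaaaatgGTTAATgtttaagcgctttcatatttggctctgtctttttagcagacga
APOA4: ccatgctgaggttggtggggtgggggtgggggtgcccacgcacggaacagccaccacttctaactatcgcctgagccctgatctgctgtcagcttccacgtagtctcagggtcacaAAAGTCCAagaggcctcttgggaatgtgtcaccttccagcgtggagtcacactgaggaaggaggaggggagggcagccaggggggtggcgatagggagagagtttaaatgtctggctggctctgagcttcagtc
APOA2: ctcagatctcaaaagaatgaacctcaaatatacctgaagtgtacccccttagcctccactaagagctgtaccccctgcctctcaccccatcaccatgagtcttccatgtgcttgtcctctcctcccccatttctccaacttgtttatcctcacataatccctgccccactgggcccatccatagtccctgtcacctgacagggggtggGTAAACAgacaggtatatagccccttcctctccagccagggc
APOH held the shorter HNF1 motif GTTAAT at a pair of places, a motif in 6.2% of windows that can overlap the HNF1 core but did not here. APOA4 held AAAGTCCA, a form of the HNF4 site found in 0.98% of windows, 134 to 127 bases before the start. APOA2, which hardly differed, held TGTTTAC, a FOXA site present in 3.0% of windows. The windows of APOC1, APOE and APOM and the upstream start of MTTP held none of the 5 motifs. These matches describe the letters in the windows and were not set against the expression values by any test. With motifs chosen after the promoters were seen, the shares of windows do not weigh the matches.

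The siRNAs were also set against the controls one at a time, which share the same 2 control arrays. Calls for a single siRNA rest on 1 array whose spread is assumed to equal that of the 2 controls, although the siRNA-2 array had an SD of 0.384 over all probe sets, against 0.197 on the siRNA-1 array and 0.164 and 0.154 on the control arrays. The part of this wider spread in the siRNA-2 calls was not tested. With siRNA-2, 6 of the 10 rose in a limma model with 3 groups, beside 13.2% of all genes higher and 10% lower. These were MTTP (1.63 ± 0.09, adjusted p = 0.0155), APOC1 (1.38 ± 0.07, adjusted p = 0.0155), APOE (1.08 ± 0.08, adjusted p = 0.0175), APOH (1.10 ± 0.12, adjusted p = 0.0249), APOC3 (0.68 ± 0.07, adjusted p = 0.0235) and APOA1 (0.57 ± 0.09, adjusted p = 0.0380). None of them passed after repeated quantile normalization. With siRNA-1 none of the 10 passed, and no gene of the array did (0% higher, 0% lower; smallest limma adjusted p = 0.0873), while 6 of 10 had an unadjusted p under 0.05, against 26.6% of all genes. With arrays centred on their median 790 genes passed with siRNA-1, 2 of the 10 among them, and with the mean of probe sets 112 passed, 1 of the 10 among them. MTTP (1.59 ± 0.09), APOH (0.81 ± 0.12), APOC1 (0.61 ± 0.07) and APOE (0.61 ± 0.08) were the largest with siRNA-1 among the probe sets used.

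In the test of the difference between the siRNAs, 1 of the 10 passed, beside 3.95% of all genes higher with siRNA-2 and 2.81% lower. This was APOC1, higher with siRNA-2 by 0.77 ± 0.08 (limma adjusted p = 0.0457). With every probe set tested on its own it no longer passed (limma adjusted p = 0.0582), and no gene passed after repeated quantile normalization. Averaging probe sets, dropping dim genes or centring arrays on their median let more of the 10 pass, and the count over all genes rose as well. APOC3 (0.57 ± 0.08, adjusted p = 0.0577), APOE (0.47 ± 0.09, adjusted p = 0.0794) and APOM (0.37 ± 0.08, adjusted p = 0.0884) had differences in the same direction that did not pass. The sign was towards siRNA-2 in 7 of 10 genes, against 47.3% of all genes, and APOA2 (-0.03), APOA4 (-0.00) and APOB (-0.13) went the other way. For KDM1A itself, siRNA-2 minus siRNA-1 was 0.38 ± 0.08, which did not pass (limma adjusted p = 0.0926).

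**Figure D2:**
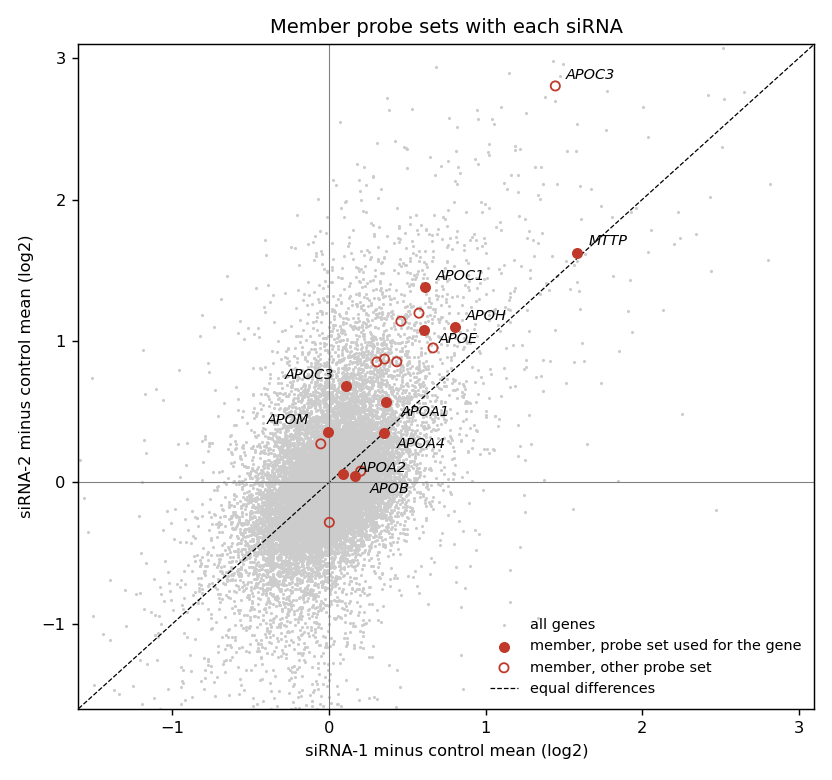
Difference from the control mean (log2) with siRNA-2 (vertical) and siRNA-1 (horizontal) for the 20 probe sets of the 10 genes (filled, the probe set used; open, the others) over all genes (grey; genes beyond the axes are not drawn). MTTP (siRNA-2 1.63, siRNA-1 1.59) lies on the dashed line of equal differences, APOC1 (siRNA-2 1.38, siRNA-1 0.61) and APOC3 lie above it, and the open APOC3 point (siRNA-2 2.80, siRNA-1 1.45) lies far from the filled one (siRNA-2 0.68, siRNA-1 0.11).

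Counted over probe sets, 17 of 20 read higher on both LSD1-KD arrays than on either control and 0 read lower. These are repeat readings of the same 10 genes on the same arrays. The share over all probe sets was not counted, and over all genes it was 23.6% higher and 25.4% lower. The 3 that overlapped were the pair for APOM and the second APOB probe set, and that APOB probe set was the only one of 20 with a difference below 0. Between the control arrays the gap for the 10 genes ran from 0.00225 to 0.196 log2 units, with a median of 0.0657 beside 0.0827 over all genes. Between the knockdown arrays the median gap was 0.25, beside 0.213 over all genes.

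Some of these genes lie in clusters. On chromosome 11, in the order of GRCh38.p14, APOA5 (0.35 ± 0.18), APOA4 (0.35 ± 0.11), APOC3 (0.40 ± 0.22) and APOA1 (0.47 ± 0.13) each read higher on both LSD1-KD arrays than on either control in the chosen probe set. Other probe sets gave 2.12 for APOC3 and 0.62 for APOA5, so sizes within the cluster depend on the probe set. Their siRNAs did not follow one order, since APOA5, which raises the lipolysis of triglyceride-rich particles, gave 0.13 under siRNA-2 and 0.56 under siRNA-1, while APOC3 was at 0.68 under siRNA-2 and 0.11 under siRNA-1. On chromosome 19, APOE and APOC1 were followed by APOC2, the activator of lipoprotein lipase, at 0.13 ± 0.11 (limma adjusted p = 0.634). A pair of probe sets that name APOC4 and APOC2 together read 0.42 and 0.48. Of the 12 nearest measured protein-coding genes on either side of the clusters, 4 read higher, 3 lower and 5 overlapped, beside 23.6% and 25.4% of all genes, with differences from -0.29 for TOMM40 to 0.99 for CADM1.

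**Figure D3:**
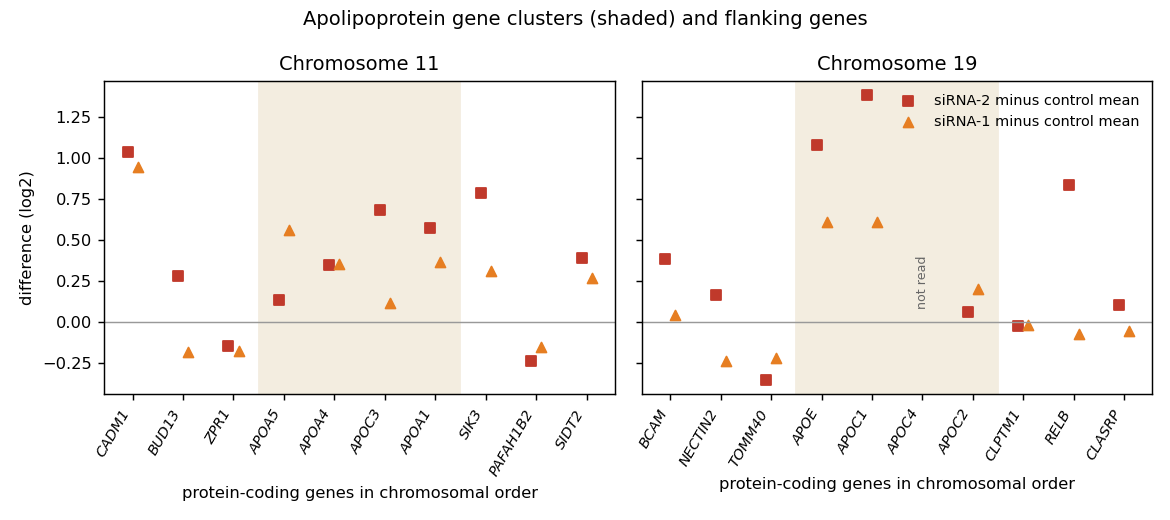
Difference from the control mean (log2, vertical axis) with siRNA-2 (squares) and siRNA-1 (triangles) for the apolipoprotein clusters (shaded) and the 3 nearest measured genes on each side, in chromosomal order and not to scale. With siRNA-2 and then siRNA-1, APOE (1.08 and 0.61) and APOC1 (1.38 and 0.61) stand above TOMM40 beside them (-0.36 and -0.22); APOC4 has no probe set of its own.

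Related lists of genes had members on both sides of 0, and none of their genes passed the limma test over all genes. Of 12 other apolipoprotein genes read, 7 were higher and 4 lower on both LSD1-KD arrays, beside 23.6% and 25.4% of all genes. Their median was 0.17. APOF, a regulator of lipid transfer read by a dim probe set, was at 1.18 ± 0.13 (limma adjusted p = 0.138) and APOL3 at 0.74 ± 0.28, APOL6 was at 0.35 ± 0.11, and APOO, a mitochondrial inner membrane protein, at -0.55 ± 0.15. With siRNA-2 alone 4 of the 12 rose and 1 fell, beside 13.2% of all genes higher and 10% lower. All such calls in these lists rest on 1 array, and none held after repeated quantile normalization.

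Of 23 genes that act with MTTP and APOB in particle assembly and secretion, 9 were higher, 5 lower and 9 overlapped, and the median was 0.08, beside 23.6% of all genes higher and 25.4% lower. The share lower was thus near that of all genes. The phospholipid transfer protein gene PLTP (0.49 ± 0.10) and MIA2 (0.64 ± 0.15), which helps large cargo leave the endoplasmic reticulum, had the smallest p among the higher ones. Another bright MIA2 probe set read 0.24 and overlapped the controls, and the rest read 0.23 and, for a dim one, -0.08. CANX, a chaperone of the endoplasmic reticulum, was at -0.52 ± 0.16 and SAR1B, the GTPase of the vesicles that export these particles, at -0.31 ± 0.10, though bright probe sets did not all give these sizes. The others read 0.00, -0.05 and -0.38 for CANX and 0.17, -0.31 and 0.04 for SAR1B. With siRNA-2 alone 3 of the 23 rose and 2 fell, near the shares over all genes (13.2% higher, 10% lower).

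Receptors and clearance factors had a median of 0.07 over 10 genes. Of these, 4 read higher and 1 lower than either control on each LSD1-KD array, beside 23.6% and 25.4% of all genes. The endocytic receptor gene LRP2 (0.90 ± 0.11, limma adjusted p = 0.165) and SDC1 (0.63 ± 0.11, limma adjusted p = 0.201), a heparan sulphate proteoglycan that binds remnants, were the largest. SCARB1, the high density lipoprotein receptor, was at 0.19 ± 0.12, and MYLIP, which targets lipoprotein receptors for degradation, at -0.21 ± 0.13. Other MYLIP probe sets of the same class read 0.09, -0.34 and 0.07, and all overlapped the controls. A second bright SDC1 probe set was higher too, at 0.27. Plasma lipases, transfer proteins and sterol exporters had a median of 0.04 over 11 genes, 4 higher and 3 lower. Their share lower was near that of all genes. These counts and the median depend on the probe set used. Other probe sets of the same brightness class read 1.08 for LCAT (-0.08 in the one used) and 0.20 for ANGPTL4 (-0.46). For LPL the other one read -0.26 (-0.11 in the one used). Values were 0.62 ± 0.18 for the transfer protein gene CETP, 0.60 ± 0.18 for ABCA1, which loads cholesterol onto apolipoprotein A-I, and 1.05 ± 0.38 and 0.28 ± 0.10 for ABCG5 and ABCG8, which form a sterol exporter.

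Transcriptional regulators of these genes had a median of 0.16 over 18 genes. Of these, 10 read higher and 2 lower than either control on each LSD1-KD array, beside 23.6% and 25.4% of all genes. PROX1, a hepatic co-repressor, was at 0.42 ± 0.10 (limma adjusted p = 0.251), CEBPB at 0.35 ± 0.13 and the coactivator gene PPARGC1A at 0.52 ± 0.21, while its relative PPARGC1B was at -0.66 ± 0.24. With siRNA-2 alone 5 of the 18 rose and 2 fell, beside 13.2% of all genes higher and 10% lower, so that the falls were near the share over all genes. The genes of HNF1 and HNF4 were not analysed here. For 22 genes, those named by p from these lists together with APOA5 and APOC2, the signs of other probe sets were counted. Of these probe sets, 27 of 37 had the same sign of difference as the one used, or 20 of 27 without dim ones.

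**Figure D4:**
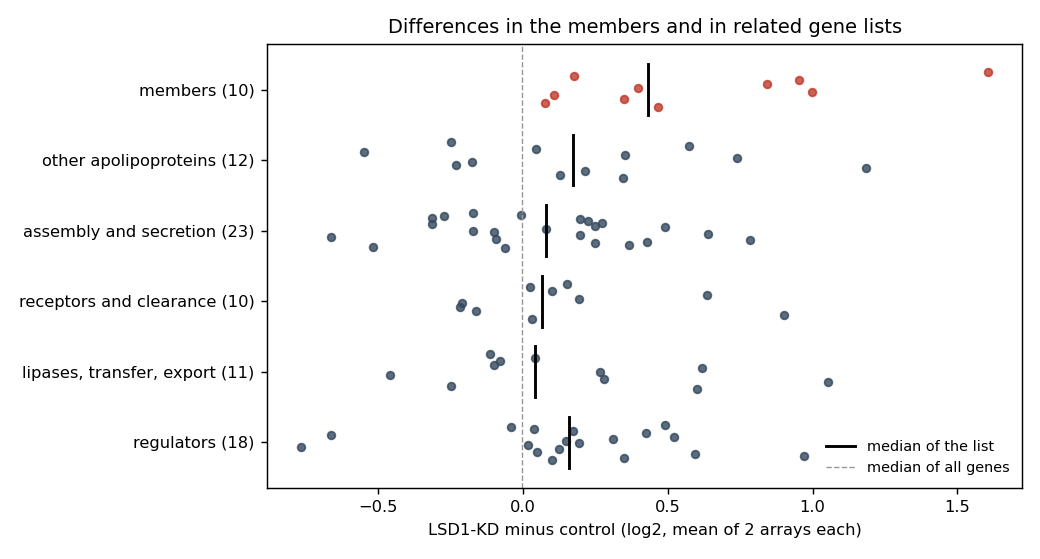
LSD1-KD minus control (log2, horizontal axis) for each gene of the 10 described here (red) and of the related lists (dark), with list medians (bars) and the median of all genes (dashed). The 10 genes run from 0.08 to 1.61 with none below 0, whereas each other list spans 0.

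For the cell type markers on the same arrays, the shares over all genes were again 23.6% higher and 25.4% lower on both LSD1-KD arrays, and 13.2% higher and 10% lower with siRNA-2 alone. Of the 7 hepatocyte markers 6 were higher and 0 lower on both LSD1-KD arrays, at a median of 0.37, and 3 rose with siRNA-2 alone. FGB, counted as higher, had a second bright probe set at -0.07 that overlapped, while the other ALB probe sets were higher too. Of 5 stellate cell and fibroblast markers 2 were higher, 1 lower and 2 overlapped, in a range from -0.27 to 1.88 set by PDGFRB and COL1A1, and 3 rose with siRNA-2 alone. The COL1A1 value rests on 1 of 5 probe sets, since the other bright one read -0.18, with both LSD1-KD arrays below the controls, and the rest 0.06, -0.08 and 0.44. Enterocyte markers had 0 of 7 higher and 2 lower (-0.32 to 0.14), biliary markers 2 of 6 higher and 2 lower (-0.48 to 1.11), and blood cell markers 1 of 4 higher and 1 lower (-0.26 to 1.31). COL3A1 and CD163, counted as overlapping, had other probe sets of the same class that were higher. These read 0.50 for COL3A1 and 0.30 and 0.50 for CD163, so the marker counts depend on the probe set. Centring leaves no marker with a level, and the part of any of these lists in the values of the 10 genes was not tested.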

How the data were processed

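The 10 genes and all lists were chosen with earlier results of these data known. Messenger RNA of HepG2 cells was read on 4 arrays, 2 per group, grouped by their titles. The deposited values are on a scale taken to be log2 and were made by the authors with RMA, per the submitters' processing notes. The sources used here give neither log base nor software version. The values show that each of 54675 probe sets was centred on its median over the 4 arrays (largest deviation 5.0e-07), so no levels or depth remain, and precision is limited by the number of arrays.

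A single gene symbol was available for 41097 probe sets, several for 1801 and none here for 11777. Symbols were updated by gene identifier, which matched 19735 of 19775 genes. Brightness was classed from the step of single-precision numbers, which is coarser at 8 and above and finer below 4 (dim, 4575 genes). Of the brightest class 24.6% were also whole at the next coarser step, which no value should need. A dimmer row may thus be placed in a brighter class about that often. The share of each class misplaced in this way was not worked out and may be larger. Each gene was read by its brightest class, then by probe sets without a letter suffix, then by identifier. The design named the mean level, which centring removed, so class was used instead. Tests used limma 3.58.1 under R 4.3.3 on LSD1-KD against control (eBayes, two-sided, Benjamini-Hochberg over all genes, threshold 0.05), each siRNA in a model with 3 groups whose spread comes from the 2 controls. The fit was tested on simulated data. Exact permutation over 2 and 2 arrays reaches at best a two-sided p of 0.33 and was left out. Genes named are the 10, KDM1A, up to 4 genes of smallest p per list, cluster neighbours and the 5 patterns nearest to MTTP. TOMM40, CADM1, PDGFRB, COL1A1, VIL1 and CD36 were named after their values were seen. The same holds for LCAT, ANGPTL4, LPL, FGB, ALB, COL3A1 and CD163. Motifs were chosen with the promoters in view, and promoter sequences are from RefSeq (GRCh38.p14). Alternatives were the probe set rule, a filter on dim genes, scaling, moderation, a replicate block and leaving out each array. Deviations of same-numbered arrays had a correlation of 0.036. As the gap between the knockdown arrays includes the difference between the siRNAs, this value does not tell whether same-numbered arrays shared a batch.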

Additional observations from a re-analysis of the deposited data

Results flagged for a closer look

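APOC1 differed between the siRNAs, by 0.77 log2 units (siRNA-2 minus siRNA-1, limma adjusted p = 0.0457), with 1.07 on the siRNA-2 array and 0.30 on the siRNA-1 array. Each siRNA is 1 array, so this sets 1 array against 1 array with the spread of the 2 controls. The call was lost with every probe set tested on its own (limma adjusted p = 0.0582) and after repeated quantile normalization, where no gene passed. Its second probe set differed by 0.62.

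Outside the gene measurements, hybridization spike-ins differed between the groups by 1.28 (LSD1-KD minus control), in a range from 0.80 to 1.53 over 18 probe sets. Poly-A spike-ins differed by 0.30 over 24 probe sets.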

How the results depend on the processing

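For 8 of the 10 genes the direction was kept under every one of up to 12 alternatives that gave a value. The exceptions were APOB, at -0.017 with the mean of its probe sets, and APOM, at -0.00685 without the siRNA-2 array and 0.359 without the siRNA-1 array. None of the 10 passed except with repeated quantile normalization (4) and, leaving out each array in turn, 0 to 6. The 6 came without the siRNA-1 array, which is the siRNA-2 comparison with the spread of the controls. Members higher on all knockdown arrays than on all controls numbered 9 to 10 on leaving out an array and members lower 0 to 1, the 1 being APOM. With fewer arrays the groups are apart more easily, and the share over all genes was not counted for these settings. Over all genes 1 passed, against 401 with repeated quantile normalization and 0 with the mean of probe sets, without dim genes, with robust moderation, with every probe set on its own, or with the replicate block, which also gave 0 of the 10. On leaving out an array that count ran from 0 to 4596. No pairing of the arrays is stated. With siRNA-1, 0 genes passed, against 112 with the mean of probe sets and 790 with arrays centred on their median, of which 1 and 2 were among the 10. With siRNA-2, 4596 passed, against 0 with repeated quantile normalization. Between the siRNAs 1336 passed, against 2108 with the mean of probe sets, 605 without _s_at and _x_at probe sets, 2910 without dim genes, 3229 with arrays centred on their median and 0 with repeated quantile normalization. The cause of these changes was not tested, except that repeated quantile normalization equalises the array spreads by construction. No level over background could be read for any of the 10, and none was read by a probe set classed as dim.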
